A study of Mus musculus with 6 samples.

Results

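Noradrenaline reaches fat cells from sympathetic nerves and acts on them through the adrenergic receptors, and the chromatin at the genes of 8 of these receptors was examined in white preadipocytes with and without HMGN proteins. The genes were Adrb1 and Adrb3 of the beta type, Adra1a, Adra1b and Adra1d of the alpha-1 type, and Adra2a, Adra2b and Adra2c of the alpha-2 type. Each locus was taken as the gene body in GENCODE M21 (mouse genome mm10) with 20 kb on either side, and every ATAC-seq summit listed in that interval was included. The 8 loci covered 647 kb and held 667 of the listed summits over all libraries. Of these summits, 534 lay in 66 windows of about 0.5 kb that were tested, out of 179251 windows in the whole genome.

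The preadipocytes came from inguinal white adipose tissue of C57BL/6 mice and were assayed at day 0, before any differentiation medium was added. The 3 WT libraries were from wild type mice. The 3 DKO libraries were from mice of the same strain that lack both Hmgn1 and Hmgn2 in all cells, 2 genes whose proteins bind nucleosomes without sequence preference. Per the study's methods, the cells were primary cultures from young adult mice, released from the fat pad by collagenase and grown in culture dishes, so they are a mixed adherent population that was not sorted. Nothing in the labels says that the replicates of a genotype came from separate animals, so each p-value measures the spread between these cultures or libraries.

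In fat, the receptor types act through different G proteins. The beta receptors couple to Gs, which activates adenylyl cyclase, raises cyclic AMP and, through protein kinase A, drives lipolysis and the thermogenic programme of browning. The alpha-2 receptors couple to Gi and oppose that route, and the alpha-1 receptors couple to Gq and raise calcium. Adrb3 is the beta receptor typical of mature mouse adipocytes and is induced during differentiation.

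The level reported at a site is the fold enrichment of its strongest summit, which is the pileup of Tn5 cut sites there over the local background of the same library, as the authors' peak caller gave it. Each library's list ends near 300000 summits, so a site that is not listed fell below the end of that list and is not shown to be closed. The lists ended at a pileup of 8 to 12 cut sites. The fold enrichment was highest in WT replicate 3, with a median of 5.87 over its list against 4.35 to 5.07 in the other 5 libraries, and changes were therefore computed after quantile normalization. In the deleted genes, Hmgn2 had 3, 5 and 3 summits in the WT libraries and 0 in each DKO library, whereas Hmgn1 had 4, 7 and 4 in WT and 7, 8 and 6 in DKO, its promoter being listed in all 6 libraries.

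At day 0, 7 of the 8 receptor genes had a promoter window, that is, a tested window with its centre within 1 kb of an annotated start site. In 5 of them, Adra1a, Adra1b, Adra1d, Adra2a and Adra2b, that window was listed in all 6 libraries. Over all 21755 protein-coding genes, 67% had a promoter window and 59.7% had one listed in every library. The 5 receptors are alpha receptors, and the promoter windows of both beta receptors were each missing from 1 library. Among all genes with a promoter window, the level of Adrb1 was at the 13.7th percentile and that of Adrb3 at the 16.4th, and the highest receptor, Adra1d, was at the 61.4th.

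The central 201 bases are shown for 3 promoter windows that lie outside untranslated regions, since these are the strongest of the receptor promoters outside such regions, the one at Adra1b lying upstream of its internal start. They were read from the plus strand of the GRCm38 reference. Capitals mark a match to GGGCGG, a GC box, on either strand; TGAGTCA (an AP-1 site), TGACGTCA (a cyclic AMP response element) and GGAATG (a TEAD site) were searched in the same way, and no match overlapped another.
Adra1d, chr2:131562678-131562878: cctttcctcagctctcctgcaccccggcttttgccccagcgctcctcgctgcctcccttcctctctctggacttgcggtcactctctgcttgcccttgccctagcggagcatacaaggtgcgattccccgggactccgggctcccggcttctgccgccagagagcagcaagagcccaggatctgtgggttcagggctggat
Adra2b, chr2:127362554-127362754: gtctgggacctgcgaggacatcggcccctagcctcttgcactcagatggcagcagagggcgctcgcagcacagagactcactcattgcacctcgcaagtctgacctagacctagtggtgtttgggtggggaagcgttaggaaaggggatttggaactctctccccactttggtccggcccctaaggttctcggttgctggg
Adra1b, chr11:43836492-43836692: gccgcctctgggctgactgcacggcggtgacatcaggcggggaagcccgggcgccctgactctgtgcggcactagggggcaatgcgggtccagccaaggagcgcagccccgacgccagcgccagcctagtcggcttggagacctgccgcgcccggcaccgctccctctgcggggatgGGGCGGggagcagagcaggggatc
These 201 bases held a GC box only in Adra1b, against 9.97% of all windows read over the same length. The cyclic AMP response element, which binds the protein kinase A substrate CREB, was found in 0 of the 66 receptor windows and in 0.659% of all windows.

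Adra1d, whose receptor couples to Gq, had the highest promoter level. Its window, 495 bp upstream of the start site and inside an intron of the antisense gene Gm14285, was enriched 14.3, 11.4 and 14.5 fold in the WT libraries (replicates 1 to 3, an order kept throughout) and 13.5, 11.5 and 8.74 fold in the DKO libraries. The genotypes overlapped, with DKO replicate 3 the lowest library. The difference between DKO and WT was -0.09 ± 0.14 on the log2 scale (SE, n = 3 and 3, limma adjusted p = 0.819).

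Adra2a and Adra2b, the Gi-coupled receptors that restrain lipolysis, followed. At Adra2a the fold enrichment was 13.2, 7.61 and 15.3 in the WT libraries and 9.47, 8.85 and 7.26 in the DKO libraries. This window lies 276 bp upstream of one start site and in the untranslated region of a transcript that starts farther upstream. Of the receptor promoters it had the largest difference relative to its error, -0.26 ± 0.17 (log2, limma adjusted p = 0.526), and WT replicate 2 fell inside the range of the DKO libraries. Without that library the difference was -0.46, and without WT replicate 1 it was -0.16. At Adra2b the values were 11.3, 7.51 and 15.8 in WT and 8.61, 10.5 and 8.90 in DKO, 554 bp upstream of the start, and the genotypes overlapped. A weaker window on the start site of Adra2b itself had 3.51 to 4.33 in WT and 3.44 to 4.07 in DKO.

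Adra1b has 2 annotated starts, and the one with a summit listed in all 6 libraries was internal. The promoter window, 260 bp upstream of the internal start, was enriched 8.55, 5.62 and 12.6 fold in WT, and 6.12, 9.80 and 8.77 fold in DKO. Within 1 kb of the other start, 64.9 kb farther upstream, a summit was listed in 1 of 6 libraries, WT replicate 3. At Adra1a, the other Gq-coupled receptor, the window on the start had 7.30, 4.55 and 8.51 in WT and 5.31, 8.50 and 5.90 in DKO. At both genes the WT range held all 3 DKO values.

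The beta receptors had low promoter levels. At Adrb1, the main beta receptor of the heart, the window 755 bp upstream of the start had 4.62 and 3.82 in WT replicates 1 and 3 and 5.03, 3.72 and 3.20 in the DKO libraries, and WT replicate 2 listed no summit within 1 kb. These values rest on a pileup of 9 to 17 cut sites. At Adrb3, the window 712 bp inside the gene, in the coding exon, had 3.44, 5.80 and 5.02 in WT and 4.14 and 4.81 in DKO replicates 1 and 3. DKO replicate 2 had a summit within 1 kb of that start but outside this window, so all 6 libraries listed a summit near the start of Adrb3. None lay within 1 kb of the start of the longest coding transcript, 27229588 on chromosome 8. The gene record extends farther upstream, to 27250616, and a start at that end was not examined.

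Adra2c, the remaining Gi-coupled receptor, was the gene with the least signal. No library listed a summit within 1 kb of its start. Its 43.4 kb locus held 0, 2 and 0 summits in WT and 2, 0 and 1 in DKO, all in the later part of the lists (ranks 222188 to 276029).

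**Figure D1:**
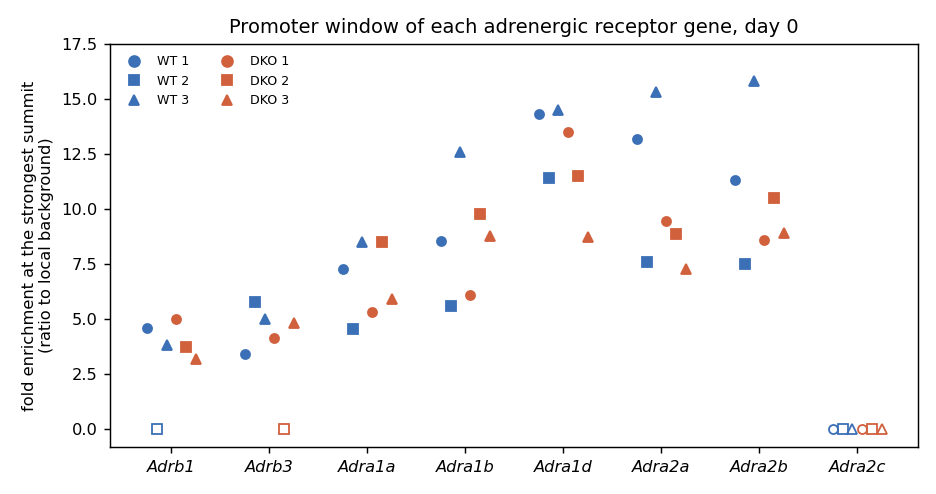
Fold enrichment (a ratio, linear axis) at the promoter window of each receptor gene, with 1 point per library in WT (blue) and DKO (orange). Open symbols at 0 are libraries in which the window was not listed. Adra1d is highest with 8.74 to 14.5, Adrb1 lowest of those listed with 3.20 to 5.03, and Adra2c was listed in no library.

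In order of their mean over the 6 libraries, the promoter levels were 12.3 ± 2.21 at Adra1d (SD, n = 6), 10.4 ± 2.96 at Adra2b, 10.3 ± 3.25 at Adra2a, 8.58 ± 2.55 at Adra1b and 6.68 ± 1.68 at Adra1a. Neighbours in this order mostly did not separate. Adra1d was above Adra2b in 4 of 6 libraries, Adra2b above Adra2a in 3 and Adra2a above Adra1b in 4, with mean differences smaller than their SD. Adra1b was above Adra1a in 6 of 6 libraries, by 1.90 ± 1.30. Where listed, Adrb3 had 4.64 ± 0.896 and Adrb1 4.08 ± 0.736 (SD, n = 5 libraries each). In the rank of summits by p, where 1 is the strongest line of a list, the Adra1d promoter stood between 22317.5 and 52078.5 and the Adrb1 promoter between 162260 and 291080.

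None of the 7 receptor promoters differed between WT and DKO at an adjusted p of 0.05, either in fold enrichment or in rank by p, and none did at an unadjusted p of 0.05. Of all promoter windows, 0.0331% were called lower, 0.0221% higher and 0.243% in rank, and 12.3% passed an unadjusted p of 0.05, so a count of 0 among 7 is no result about the receptors. The changes in fold enrichment ran from -0.42 ± 0.47 at Adrb3 to 0.55 ± 0.42 at Adrb1 on the log2 scale, with limma adjusted p-values of 0.526 to 0.914. At both genes the value of the library that did not list the window was set to the lowest of its list. Without that library the change was 0.12 at Adrb1 (WT replicate 2 left out) and 0.13, of the opposite sign, at Adrb3 (DKO replicate 2 left out). Adrb3 also turned to 0.05 with windows of 1 kb, and Adrb1 was at 0.88 without WT replicate 1. The median change of the 7 promoters was -0.07, against 0.06 over all 18104 promoter windows. A difference of bulk chromatin cannot tell a site that is less open in every cell from one that is open in fewer cells.

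The comparison over all 66 windows of the receptor loci gave 33 changes below 0 and 33 above 0 in DKO, with a median of 0.00 on the log2 scale against 0.01 over all windows. Of the 66, 37 lay in introns, 20 between genes, 5 in untranslated regions and 4 in coding exons, and for 34 the nearest start site belonged to another gene. Listing was like that of the genome: 39 of 66 windows were listed in all 6 libraries, against 58% of all windows. In 3 windows the normalized values of the DKO libraries all lay below those of the WT libraries, and in 5 they all lay above. Over all windows such a separation occurred in 7.67% for lower and in 8.76% for higher values, so the shares at the receptor loci, 4.55% and 7.58%, were not above the background.

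By limma, 1 of the 66 windows was lower in DKO and 0 were higher at an adjusted p of 0.05. Of all windows, 0.0385% were called lower and 0.0234% higher. In the rank by p, the same window was the 1 that stood later in the DKO lists, and 0 stood earlier, against 0.0943% and 0.0725% of all windows. At an unadjusted p of 0.05, 4 of the 66 windows passed in fold enrichment (6.06%), below the 11.8% of all windows.

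**Figure D2:**
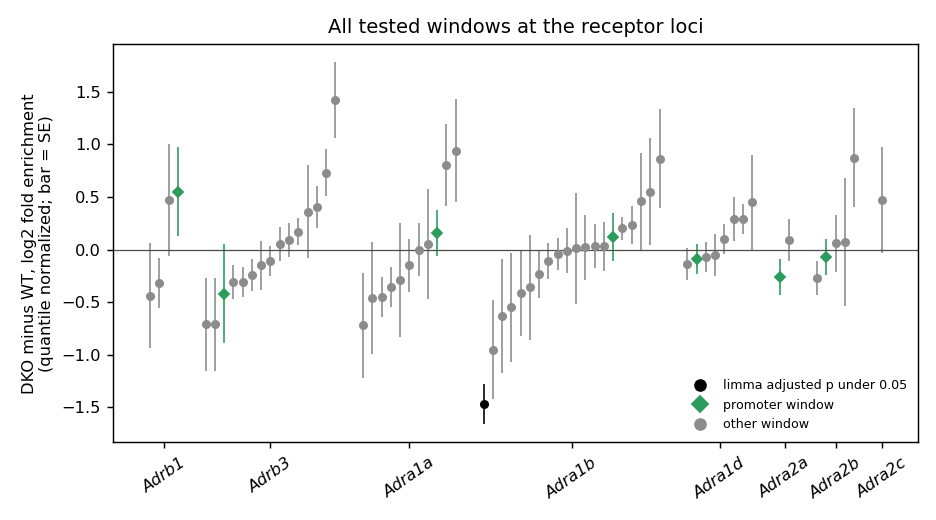
Difference in fold enrichment between DKO and WT (log2, after quantile normalization) in each of the 66 windows, ordered by size within each receptor locus. Bars are SE (n = 3 and 3). The black point, at -1.47 in Adra1b, is the window that passed an adjusted p of 0.05, and the green diamonds are the 7 promoter windows, which lie between -0.42 and 0.55.

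The window that differed lies in the intron of Adra1b, 56556 bp downstream of the internal start, at chr11:43779526-43780026. In WT its fold enrichment was 9.91, 9.0 and 15.1, and in DKO it was 3.34, 4.24 and 3.28. The 2 groups did not overlap: the lowest WT library was above the highest DKO library. Solved from the fold enrichment and p, the summit pileups were 38, 35 and 60 cut sites in WT and 11, 14 and 9 in DKO. In the order of each list by p, the summit stood at 67796.5, 60839.5 and 46627.5 in WT and at 275904, 211447 and 253428 in DKO. The change was -1.47 ± 0.19 in log2 fold enrichment (limma adjusted p = 0.0328) and 0.63 ± 0.09 in log10 rank (limma adjusted p = 0.0108). An exact permutation test of this window alone gave p = 0.1, which is the smallest that 3 against 3 libraries allow. The adjusted p did not stay under 0.05 when any 1 library was left out (0.198 to 0.272 in fold enrichment and 0.145 to 0.274 in rank), with changes of -1.56 to -1.36. The call in fold enrichment was also lost without scaling (-1.62, adjusted p = 0.0944).

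The central 201 bases of this window, on the plus strand of GRCm38, are shown because it is the receptor site with the genotype difference. Capitals mark the AP-1 site TGAGTCA.
Adra1b intron, chr11:43779676-43779876: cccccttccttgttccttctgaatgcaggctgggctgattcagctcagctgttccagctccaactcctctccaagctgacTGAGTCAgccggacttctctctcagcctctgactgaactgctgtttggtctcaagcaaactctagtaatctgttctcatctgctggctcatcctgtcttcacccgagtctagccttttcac
The match ends 14 bases from the window's centre, which is the summit of WT replicate 3. AP-1 is the dimer of FOS and JUN proteins and its site is common in open chromatin of these cells: 23.6% of all windows held it in their central 201 bases, and 21.2% of the receptor windows did. Within the Adra1b locus, 7 of 20 windows held an AP-1 site, and 6 of those 7 were not called.

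Over all 20 windows of Adra1b, that one included, 10 changes were below 0 and 10 above 0. The strongest site of the locus, and of all receptor loci, lay 18661 bp upstream of the gene between genes, where the WT libraries had 17.4, 14.0 and 16.4 fold enrichment and the DKO libraries 16.4, 18.2 and 15.2. It was at the 95.5th percentile of all windows, and its pileups ran from 127 to 212 cut sites. The values as deposited overlapped, whereas after normalization all DKO values lay above the WT values. Its log2 change was 0.20 ± 0.11 (limma adjusted p = 0.458). The next, 5741 bp inside the gene, had 14.1, 9.47 and 17.4 in WT and 11.9, 13.6 and 8.19 in DKO. The third, beyond the 3′ end, had 8.95 to 15.5 in WT and 8.21 to 12.0 in DKO.

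**Figure D3:**
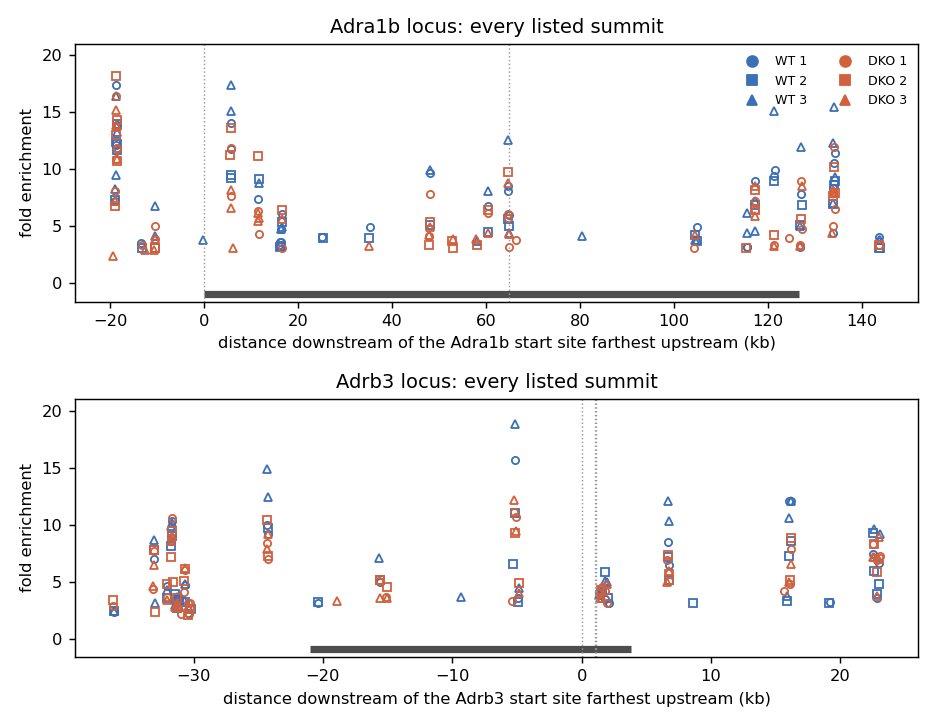
Fold enrichment of every listed summit at the Adra1b and Adrb3 loci against distance from the coding start site farthest upstream (kb, positive is downstream), 1 symbol per library in WT (blue) and DKO (orange). The grey bar is the gene record and dotted lines are start sites. In Adra1b, the intron site about 121 kb downstream has WT symbols at 9.0 to 15.1 and DKO symbols at 3.28 to 4.24.

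At Adrb3 the site with the highest fold enrichment lay outside the promoter. It was 5185 bp upstream of the longest coding transcript, inside an intron that the record shares with Gm45470. Its central 201 bases are shown on the plus strand of GRCm38, because it had the highest fold enrichment at the beta receptors. Capitals mark the TEAD site GGAATG, which occurred there 2 times. Of all windows, 16.3% held it at least once.
Adrb3 intron, chr8:27234673-27234873: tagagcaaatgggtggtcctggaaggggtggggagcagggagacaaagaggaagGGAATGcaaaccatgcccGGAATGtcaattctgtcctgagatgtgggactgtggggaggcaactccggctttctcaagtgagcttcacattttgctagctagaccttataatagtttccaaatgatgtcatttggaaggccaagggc
Its fold enrichment was 15.7, 11.0 and 18.8 in WT and 11.1, 9.25 and 12.2 in DKO, with pileups of 70, 47 and 79 cut sites in WT and of 49, 35 and 44 in DKO. The groups overlapped at WT replicate 2. The change was -0.31 ± 0.16 on the log2 scale (limma adjusted p = 0.458). A site 24328 bp upstream had 9.68 to 14.9 in WT and 8.39 to 10.4 in DKO. By pileup (101 to 167 cut sites) and rank by p (8401.5 to 17209), a window of the flank stood above both sites. That window, chr8:27260998-27261498, lies in the neighbouring gene Eif4ebp1.

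Another intronic window of the Adrb3 record, at chr8:27244409-27244909, was listed in all 3 DKO libraries and in none of the WT libraries. It was the 1 receptor window with that pattern, and 0 showed the reverse. Of all windows, 1.14% were listed in DKO alone and 1.23% in WT alone. The pileups were 12, 15 and 10 cut sites, and the fold enrichment was 3.63, 4.53 and 3.6. With the WT libraries set to the lowest value of their lists the log2 change was 1.42 ± 0.36, a value that depends on that setting (limma adjusted p = 0.162). It passed 0.05 only when the variance trend was left out of the fit (adjusted p = 0.0132). At 2 windows of the same locus, in introns of the neighbouring gene Got1l1, the normalized DKO values all lay below the WT values. At chr8:27213280-27213780 the change was -0.31 ± 0.14 (limma adjusted p = 0.426), and at chr8:27222699-27223199 it was -0.24 ± 0.15 (limma adjusted p = 0.504).

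The 20 kb flank upstream of Adrb3 reaches the start of Eif4ebp1, which encodes a repressor of cap-dependent translation. In the window 76 bp upstream of that start, fold enrichment stood at 4.66, 3.17 and 4.78 in WT and at 6.05, 6.12 and 6.20 in DKO, with all DKO libraries above all WT libraries. Its pileups, 61, 34 and 75 in WT and 84, 87 and 66 in DKO, did overlap, and the high local background of the site lowers the ratio. The change was 0.73 ± 0.22 in log2 fold enrichment (limma adjusted p = 0.197) and -0.40 ± 0.09 in log10 rank (limma adjusted p = 0.0937). Among windows listed in all 6 libraries alone, the adjusted p of the rank was 0.0112. The 2 stronger Eif4ebp1 windows, 919 and 2313 bp inside that gene, had 9.03 to 10.3 and 7.0 to 8.68 in WT and 9.04 to 10.6 and 6.49 to 7.73 in DKO, with changes of 0.17 ± 0.13 and 0.09 ± 0.16.

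**Figure D4:**
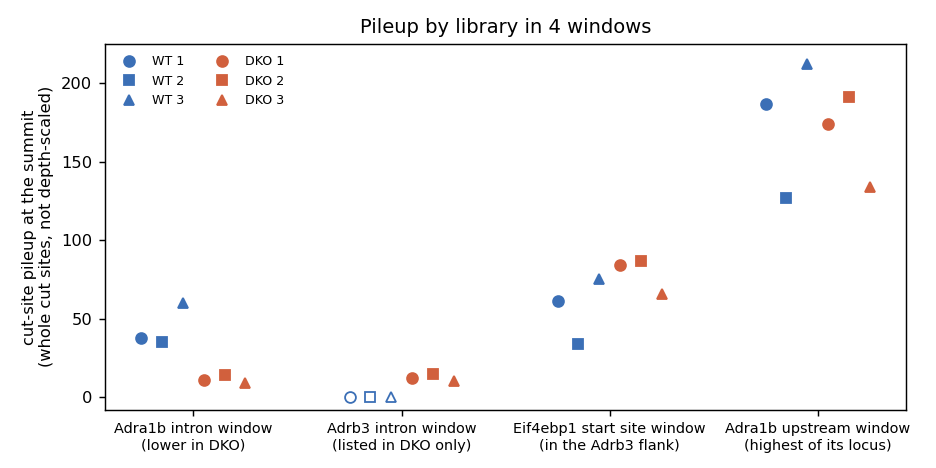
Pileup of Tn5 cut sites at the summit (whole cut sites, not scaled for depth) in 4 windows, 1 point per library in WT (blue) and DKO (orange). Open symbols at 0 are libraries in which the window was not listed. The Adra1b intron window has 35 to 60 in WT and 9 to 14 in DKO, whereas the Adra1b window upstream of the gene has 127 to 212 with the genotypes mixed.

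Of the remaining receptors, Adra1a had its strongest window in an intron, 72725 bp downstream of its last start, with 10.2, 6.26 and 10.6 in WT and 5.31, 5.39 and 6.23 in DKO. As deposited, the highest DKO value, 6.23, lay just below the lowest WT value, 6.26. After normalization the genotypes overlapped, and the log2 change was -0.45 ± 0.19 (limma adjusted p = 0.385). A weaker intron window at 27566 bp had 4.09 and 4.99 in WT replicates 1 and 3, none in WT replicate 2, and 5.03, 5.10 and 4.26 in DKO, with a change of -0.16 ± 0.07 in log10 rank (limma adjusted p = 0.374). Windows near the 3′ end of Adra1a, at 128898 bp, and at Gm10032 beyond it had 4.27 to 10.6 and 6.55 to 11.4 in WT and 5.03 to 6.24 and 4.59 to 6.71 in DKO.

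At Adra1d, a window beyond the 3′ end had 14.9, 12.2 and 15.5 in WT and 15.1, 12.6 and 9.23 in DKO. An intron window of Adra1d, 13725 bp inside the gene, had 12.7, 12.1 and 12.2 in WT and 8.69, 11.7 and 9.57 in DKO. The DKO libraries were lower as deposited, but the normalized values overlapped (log2 change -0.14 ± 0.15, limma adjusted p = 0.75). In the intron window 11245 bp inside the gene, the normalized DKO values all lay above the WT values (0.29 ± 0.14, limma adjusted p = 0.447). Adra2a had a second window 14866 bp downstream with 5.41 to 8.22 in WT and 5.10 to 7.27 in DKO, and Adra2b one 15670 bp downstream with 7.94 to 13.9 in WT and 7.40 to 8.74 in DKO. Adrb1 had its strongest site 27375 bp downstream of its start, past the gene, with 7.59, 7.68 and 9.39 in WT and 5.03, 9.07 and 4.26 in DKO. At that site, too, the genotypes overlapped. In the coding exon of Adrb1, 1322 bp from the start, a window was listed in 3 libraries with 3.14 to 4.22. The single tested window of Adra2c, 7317 bp downstream, was listed in 3 libraries with 3.13 to 3.63.

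The number of listed summits did not separate the genotypes over all loci. It was 117, 102 and 112 in WT and 118, 101 and 117 in DKO, a difference of 1.67 (exact permutation test, two-sided, p = 0.9). The loci of Adra1b and Adrb3 held most of them, with 26 to 34 and 26 to 32 per library. Adra1d was the 1 locus whose counts did not overlap, with 17, 16 and 15 in WT and 19, 20 and 18 in DKO (exact permutation p = 0.1, the smallest possible). Counted in the same way, 6.59% of the loci of all 21755 protein-coding genes had higher counts in DKO without overlap and 3.18% lower ones, so that 1 of 8 loci is not set apart from other genes. That order did not hold among the 100000 best lines of each list, where Adra1d had 9, 11 and 10 in WT and 8, 10 and 9 in DKO. The difference over all loci was 10.3 summits with flanks of 50 kb and -5.67 among the 100000 best lines, and it ran from -2.5 to 7.17 on leaving out 1 library at a time, so it had no stable sign.

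**Figure D5:**
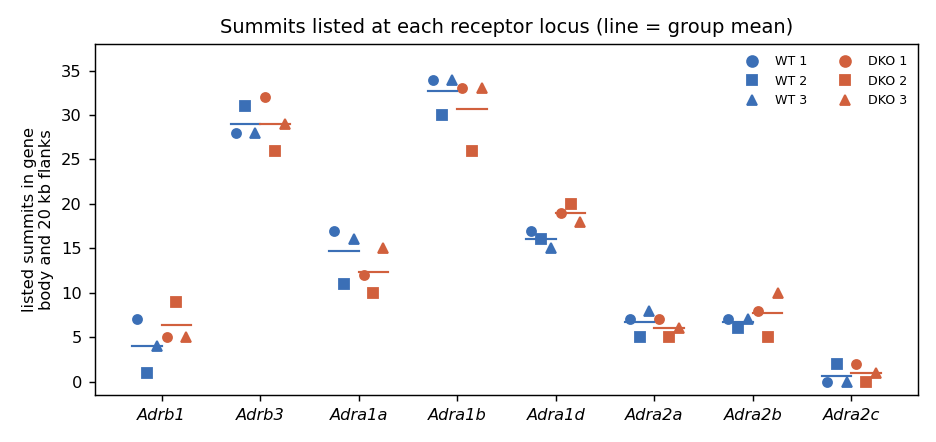
Number of listed summits in the gene body and 20 kb flanks of each receptor gene, 1 point per library in WT (blue) and DKO (orange), with a line at each group's mean. Adra1d is the locus without overlap, with 15 to 17 in WT and 18 to 20 in DKO.

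The receptors act through a shared set of proteins, and 48 genes of that route were examined in the same way: G protein alpha subunits, adenylyl cyclases, protein kinase A, phosphodiesterases, receptor kinases and arrestins, cyclic AMP responsive factors, lipolysis genes and genes of catecholamine synthesis, uptake and breakdown. Of the 48, 42 had a promoter window and 35 had it in all 6 libraries. None was called lower or higher in DKO, by limma in fold enrichment or in rank, and 3 passed an unadjusted p of 0.05 in fold enrichment (7.14%, below the 12.3% of all promoter windows; calls were made in the shares given above for receptor promoters). The changes were below 0 in 11 and above 0 in 31, with a median of 0.11 on the log2 scale against 0.06 over all promoter windows, and without scaling the median was -0.04.

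By group, all 6 G protein genes, all 9 cyclases, all 6 protein kinase A genes and all 6 phosphodiesterases had a promoter window, as did 5 of 6 genes of receptor desensitization, 4 of 4 cyclic AMP responsive factors and 3 of 4 lipolysis genes. Among the catecholamine genes, Maoa and Maob, whose enzymes oxidize amines, had one. The synthesis genes Th and Dbh and the transporters Slc6a2 and Slc22a3 had none, and neither did Grk3 and Plin1. Lipe, the hormone-sensitive lipase that protein kinase A phosphorylates, had 17.7 to 24.4 in WT and 20.3 to 21.2 in DKO. Prkaca, the catalytic subunit of that kinase, had 21.9 to 28.3 in WT and 24.9 to 26.3 in DKO.

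The largest changes of the list were at promoters that were missing from at least 1 library. Adcy1, an adenylyl cyclase, was listed in the 3 DKO libraries alone with 5.6, 4.0 and 3.28 (log2 change 1.53 ± 0.37, limma adjusted p = 0.159), and Pde4c, which degrades cyclic AMP, in 2 DKO libraries with 5.33 and 2.96 (0.95 ± 0.50). In the other direction were Maob (-0.71 ± 0.59) and the cyclase Adcy8 (-0.58 ± 0.42). The 3 genes that passed an unadjusted p of 0.05, named after their values were seen, were Adcy1, Pde4d (0.29 ± 0.13) and the Gi subunit Gnai3, which had 11.4, 11.6 and 12.8 in WT and 14.0, 13.9 and 13.8 in DKO (0.39 ± 0.12, limma adjusted p = 0.206). In 7 of the 42 promoters the normalized DKO values all lay above the WT values and in 0 all below (16.7% and 0%), against 12.8% and 5.28% of all promoter windows.

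The promoters of that list closest in level to a receptor promoter, by the root mean square difference of normalized log2 values over the 6 libraries, were Maoa (0.11) and Atf1 (0.19) for Adra1d, Prkacb (0.16) and Pde4d (0.34) for Adra2b, Prkacb (0.30) and Maoa (0.35) for Adra2a, Prkacb (0.25) and Prkar1a (0.30) for Adra1b, and Adcy9 (0.28) and Gnas (0.36) for Adra1a.

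Markers of the cultured cells and of other cells of the fat pad were read at their promoters. Of 9 preadipocyte markers, 8 had a promoter window, Pdgfra, Pdgfrb, Cd34 and Thy1 among them, and their summed fold enrichment, with unlisted promoters counted as 0, was 46.4 to 57.2 in WT and 44.9 to 53.7 in DKO. Of 5 markers of mature adipocytes, Retn had one (11.8 to 13.5 in WT, 10.6 to 11.2 in DKO) and Adipoq, Plin1, Lep and Cidec had none. Of 5 immune markers 3 had one, with a sum of 4.79 to 5.73 in WT and of 9.06 to 15.6 in DKO; Ptprc and Cd3e had none. The WT sum was that of Cd68 alone, and Cd68 had 5.78 to 6.26 in DKO, where Itgam and Adgre1, with 3.28 to 5.95, made up the rest. The sums of 5 endothelial markers (33.3 to 42.1 and 33.5 to 40.3, Vwf not listed) and of 5 markers of muscle and nerve (42.6 to 59.1 and 35.1 to 47.0, Elavl3 not listed) overlapped. Some single endothelial members did separate: Cdh5 was listed in the 3 DKO libraries alone (log2 change 1.76, limma adjusted p = 0.142), and the normalized values of Pecam1 (-0.31, adjusted p = 0.297) were lower in all DKO libraries. The immune sum did not overlap between the genotypes, but it counts Itgam and Adgre1, which no WT library listed, as 0. Neither was called in fold enrichment (limma adjusted p = 0.155 and 0.458). The part of the immune sum in the difference at the Adra1b intron window was not tested.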

How the data were processed

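ATAC-seq of 3 WT and 3 DKO preadipocyte cultures was analysed from 1 list of peaks per library, with groups and replicate numbers from the sample titles. Per the labels and the study's methods, the authors trimmed reads with cutadapt (1.18), aligned them to mm10 with Bowtie2 (2.3.4.3), removed duplicate and mitochondrial reads, reduced reads to Tn5 cut sites, called peaks in each library separately with MACS2 (version not given in the sources used here) at a p of 0.01 per the names of the deposited lists, kept the 300000 best and removed blacklisted regions. The deposited fold enrichment is a ratio of summit pileup to local background, and the deposited p-value and q-value are −log10 values that grow with depth. The lists held 299433 to 299620 summits, ending at −log10 p of 3.54 to 5.63; library depth itself is unknown.

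Summits of all libraries were joined into windows of about 0.5 kb, strongest first, and a window was tested if at least 2 libraries listed it at a q under 0.01. The highest fold enrichment and the best rank by p were taken; unlisted libraries received the lowest fold enrichment, or the rank after the last, of their own list. Log2 fold enrichment (quantile normalized) and log10 rank were fitted with limma 3.58.1 in R 4.3.3 (eBayes with trend; two-sided tests), and p-values were adjusted by Benjamini-Hochberg across the 179251 windows. Single values were compared by exact permutation. Whole pileups were solved from fold enrichment and p under the Poisson model of MACS2 (100% whole within 0.05). Both steps were tested on simulated data.

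The 8 receptors, the 48 signalling genes and the marker lists were chosen with earlier results of these data known. Every receptor is described. Named are its promoter window, its 3 highest windows listed in at least 3 libraries, and any window past an adjusted p of 0.05. A window without overlap at an unadjusted p of 0.05 is also named. Of the signalling list, the 2 largest changes each way and the 2 promoters closest to each receptor are named. The Got1l1 windows, the Eif4ebp1 window at 2313 bp and the Adra1d window at 11245 bp are given outside this rule. Alternatives were other scalings, no trend, windows listed in all libraries, 1 kb windows, a replicate block, other flanks, intervals in place of summits and leaving out each library. The values of 1 gene of the signalling list are not reported here.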

Additional observations from a re-analysis of the deposited data

How the results depend on the processing

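Of 412 values under alternatives, 352 were labelled the same. For tests this meant the same call with no reversed sign, where a change that rounded to 0 was not reversed. For counts it meant a ratio within a fixed limit. Differences in summits had to stay inside the spread of replicates, and medians within a fixed tolerance. The count of receptor windows lower in DKO went from 1 to 0 in fold enrichment with the replicate block, without scaling and on leaving out any 1 library (0 to 0), and the count standing later by rank went from 1 to 0 on leaving out any 1 library (0 to 0); the Adra1b intron window remained negative in fold enrichment in all of these fits. Leaving out a library also left 0 to 6 of all windows called, against 111, in fold enrichment. The count higher in DKO was 1 without the variance trend (the Adrb3 intron window), and the count standing earlier was 1 among windows listed in all libraries (the Eif4ebp1 start window). The median of the signalling list was -0.04 without scaling, which moved the median of all windows to -0.14. The difference in summits over all loci was 10.3 with 50 kb flanks, -5.67 among the 100000 best lines and -2.5 to 7.17 on leaving out a library.

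The sign of small promoter changes was not stable. In fold enrichment it turned at Adra1a (-0.03) and Adra1b (-0.07) without scaling, at Adrb3 (0.05) with 1 kb windows and at Adra2b (0.06) with centres within 500 bp of a start, and on leaving out a library the range was -0.79 to 0.13 at Adrb3, -0.07 to 0.33 at Adra1b, -0.22 to 0.02 at Adra1d and -0.24 to 0.08 at Adra2b. Without a change of sign it was 0.12 to 0.88 at Adrb1, -0.46 to -0.16 at Adra2a and 0.00 to 0.32 at Adra1a. In rank it turned at Adra2b (-0.02) with centres within 500 bp, and the ranges were -0.06 to 0.12 at Adrb3, -0.12 to 0.07 at Adra1b, -0.02 to 0.17 at Adra1d and -0.06 to 0.09 at Adra2b. The cause was not tested.

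Libraries with the same replicate number did not deviate together (r = 0.0054, -0.0114 and -0.00715), so the numbers were not taken as pairs; with the replicate block the Adra1b intron window had an adjusted p of 0.339 in fold enrichment and of 0.0213 in rank, and 0 and 222 of all windows were called.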
